A study of Mus musculus with 9 samples.

Results

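Axon guidance ligands and receptors of the mouse heart were examined with sNuc-seq, RNA sequencing of single nuclei. Each nucleus receives a barcode and each captured transcript a unique molecular identifier (UMI). All genes named Sema, Plxn, Robo, Slit or Ntn followed by a family number or letter were taken, which gave 40 of the 23747 genes in the tables. These were 20 semaphorins, 9 plexins, 4 Robo receptors, 3 Slit ligands and 4 netrins. The rule goes by name and uses no measured value, although the families were picked with earlier results of these data known.

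The hearts came from 9 C57BL/6 mice, supplied at 8 weeks of age, with 3 mice in each of 3 groups. No allele or transgene was named for any group. In the sham group, 7 days of vehicle gavage were followed by surgery with needles only, without tying the artery. The I/R group had the same 7 days of vehicle, then 30 min of ligation of the left anterior descending coronary artery and 24 h of reperfusion. In the SBP group, Shexiang Baoxin Pill, a traditional Chinese medicine labelled MUSKARDIA, replaced the vehicle over the 7 days, and surgery was as in I/R. No sham mouse received SBP, so its effect without injury was not measured. The study states that the tissue was taken below the ligation, so the samples do not stand for the whole heart. I/R against sham asked which guidance genes changed with injury, and SBP against I/R asked what the pre-treatment altered. SBP against sham differs in both injury and pre-treatment, which it cannot tell apart. All 3 comparisons share samples, so their results are given side by side and are not independent of each other.

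Semaphorins are secreted or membrane-bound ligands that signal through plexins, and the secreted class 3 members mostly need neuropilins as co-receptors. Slit proteins bind Robo receptors, and netrins bind Dcc, neogenin and Unc5 receptors. These families were first known for steering axons. They also act in vessel growth and sprouting, lymphatic development, heart morphogenesis and the migration of immune cells.

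The 9 samples held 49171 nuclei, with 4576 to 6418 nuclei per sample and a median of 1540 to 2031 UMIs per nucleus. Between 4 and 14 barcodes were shared by any pair of samples. Clusters were named from marker genes, and the names stand for nuclei that resemble a type. The 4 main types were fibroblasts (14128 nuclei), endothelial cells (13482), cardiomyocytes (10518) and myeloid cells (9591). Nuclei of T cells (783) and B cells (336) were rarer, as were those of Schwann cells (126) and of smooth muscle cells with pericytes (207). The library of I/R replicate 1 stood apart in its cardiomyocytes. In it, 79.6% of the cardiomyocytes lay in the cluster that held 92.0% to 97.5% of sham cardiomyocytes, against 0.212% and 4.11% in the other I/R replicates. In SBP mice this share was 1.17% to 20.8%. The counts of called members in the 4 main types, and the tests of called members that rest on I/R, are therefore also given without this library. Its myeloid cells and fibroblasts did not resemble sham. Of its myeloid nuclei 73.3% lay in the Gpnmb and Arg1 cluster described below, against 69.4% and 47.9% in the other I/R replicates. Of its fibroblasts 31.3% lay in the Tnc and Postn cluster, against 27.7% and 8.66%.

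Levels and differences are given on separate scales. A level is given in CPM, the UMIs of a gene per 1000000 UMIs summed over all nuclei of a type in 1 mouse. Levels by type, vessel type and cluster are scaled to these totals alone, while the values per mouse in comparisons of groups are CPM after TMM scaling (trimmed mean of M values), so that values of 1 mouse can differ slightly between these parts of the text. A difference between groups is a log2 fold change of (CPM + 1) after TMM scaling, tested with limma over 9 mice. Calls required an absolute log2 fold change above 0.25 and an adjusted p (Benjamini-Hochberg, over all genes tested in that type) no higher than 0.05. Of the 40 members, 23 passed the filter on low values in all 4 main types, 4 in 3 types, 3 in 2 types and 5 in 1 type. Ntn5, Plxnb3, Robo3, Sema4f and Sema4g passed in none. The filter asked for a minimum CPM in 3 mice of any group. Sema3e and Sema4a in cardiomyocytes and Sema4a and Sema5b in endothelial cells reached it in no sham mouse, as did some genes named below, so these were tested only through injured mice, and their values against sham are given without support from the test.

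Sema6b and Sema6d recur in the comparisons below, and the DNA just before these genes is shown for reference. Sema6b lies on the minus strand at chr17:56123085-56140343 and no annotated gene overlaps it. Sema6d lies on the plus strand at chr2:124089969-124667770, with 2 genes overlapping it on the other strand. The stretches run from 250 bases before to 50 bases after an annotated start at the gene's own end, at chr17:56140294-56140593 (minus strand) and chr2:124089719-124090018 (plus strand), as given by RefSeq for GRCm38.p6. Both strands were searched for TGANTCA (AP-1), TGACGTCA (CRE), CACGTG (E-box), ACGTG and GCGTG. The Sema6b stretch had a GC content of 69% and held none of these letters. The Sema6d stretch had a GC content of 54.3% and held CACGTG once, printed in capitals, in which ACGTG also occurs on both strands. Among 32851 promoters of the same length, 7.15% held CACGTG and 7.81% held TGANTCA. Among the 46 promoters of the 33 members in the table the shares were 8.70% and 6.52%.
Sema6b: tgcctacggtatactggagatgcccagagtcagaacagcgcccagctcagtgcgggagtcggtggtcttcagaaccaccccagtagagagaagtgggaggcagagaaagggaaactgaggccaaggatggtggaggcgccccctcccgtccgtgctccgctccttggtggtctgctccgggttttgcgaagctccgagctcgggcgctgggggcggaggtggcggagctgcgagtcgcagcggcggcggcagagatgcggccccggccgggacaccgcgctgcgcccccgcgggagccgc
Sema6d: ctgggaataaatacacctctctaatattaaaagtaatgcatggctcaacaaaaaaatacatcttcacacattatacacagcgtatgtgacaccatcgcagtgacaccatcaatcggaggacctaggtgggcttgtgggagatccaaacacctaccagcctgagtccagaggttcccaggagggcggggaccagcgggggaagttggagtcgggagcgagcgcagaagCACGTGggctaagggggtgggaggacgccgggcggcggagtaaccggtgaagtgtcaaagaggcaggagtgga

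Of the 40 members, 14 had their highest mean level in endothelial cells, 6 in fibroblasts, 6 in smooth muscle cells with pericytes, 5 in Schwann cells, 3 in myeloid cells, 3 in cardiomyocytes, 2 in T cells and 1 in B cells. Of the 14 endothelial members, 5 had a mean level at least 3 times that in each other type. Robo4, the Robo receptor known from blood vessels, ranged from 79.7 to 125 CPM over the 9 mice with a median of 105 CPM. Its mean was 4.65 times that in smooth muscle cells with pericytes, the type with the next highest level. Sema3a, a secreted repulsive ligand, ranged from 58.0 to 494 CPM (median 272 CPM), and its mean of 252 ± 130 CPM (SD, n = 9) was 7.52 times the next highest, in B cells. Its wide range is taken up below, since it follows the groups.

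Sema3f, a secreted ligand for neuropilin-2, had 61.3 to 150 CPM (median 95.7 CPM) in endothelial cells, 7.59 times the next highest type. Sema6a, a transmembrane ligand of plexins A2 and A4, had 738 to 1517 CPM (median 1200.5 CPM), 4.39 times the next highest type. Sema7a, a membrane-anchored ligand of plexin C1, had 56.3 to 135 CPM (median 97.3 CPM), 3.30 times the next highest type. No cardiomyocyte level of these 5 genes exceeded 21.3 CPM on average, the value for Sema3a. Of the plexins, Plxna2, Plxna4, Plxnc1 and Plxnd1 were also at their highest in endothelial cells, while Plxna1 was highest in myeloid cells and Plxna3 in smooth muscle cells with pericytes. Plxna4 had 763 ± 132 CPM (SD, n = 9) there against 266 ± 171 CPM in myeloid cells, and it was higher in endothelial cells in 9 of 9 mice. Plxna2 had 520 ± 114 CPM, and Plxnd1, the receptor of Sema3e in vessels, had 171 ± 62.2 CPM. For Plxnc1 the order was close, with a mean of 106 CPM in endothelial cells and 94.3 CPM in myeloid cells. It turned to 98.8 and 112 CPM when nuclei with 3 or more markers of another type were left out.

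Fibroblasts held the Slit ligands and the receptor Robo1. Slit3 had 2054 ± 631 CPM (SD, n = 9) in fibroblasts and 1241 ± 524 CPM in smooth muscle cells with pericytes, and was higher in fibroblasts in 6 of the 6 mice with 20 or more nuclei of both types. Slit2 had 552 ± 179 CPM in fibroblasts and 238 ± 217 CPM in smooth muscle cells with pericytes. Robo1, a receptor for Slit ligands, had 290 ± 51.9 CPM in fibroblasts and 159 ± 82.8 CPM in smooth muscle cells with pericytes, the next highest, with 24.5 CPM in endothelial cells and 9.87 CPM in cardiomyocytes. Slit1 differed from its relatives. It had 22.5 ± 8.83 CPM in myeloid cells (477 UMIs, 8.51 to 39.8 CPM with a median of 21.9 CPM), 11.4 times the next highest type, in 9 of 9 mice.

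Cardiomyocytes led for few members. Ntn1, the secreted ligand netrin-1, had 338 ± 125 CPM in cardiomyocytes and 298 ± 68.9 CPM in endothelial cells (SD, n = 9), and was higher in cardiomyocytes in 6 of 9 mice, so the order of these neighbours did not exceed their spread. Plxnb1, the receptor of Sema4d, had 39.2 ± 22.8 CPM in cardiomyocytes, 26.5 ± 38.7 CPM in Schwann cells and 25.2 ± 21.2 CPM in smooth muscle cells with pericytes, which do not differ beyond their spread, and below 5 CPM in endothelial cells, fibroblasts and myeloid cells. Of the 6 class 4 semaphorins, 3 were highest in lymphocytes, which are Sema4d, Sema4a and Sema4b, while Sema4c was highest in endothelial cells, Sema4g in fibroblasts and Sema4f in Schwann cells. Sema4d had 388 ± 143 CPM in T cells and 157 ± 78.9 CPM in B cells. Sema4a had 191 ± 51.1 CPM in T cells and 91.7 ± 30.4 CPM in myeloid cells, and T cells were higher in 9 of 9 mice. Sema4b had 125 ± 55.7 CPM in B cells and 52.8 ± 7.69 CPM in cardiomyocytes.

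Sema5b, Sema3e and Sema4f met the 3-fold rule in types with few nuclei. Sema5b had 18.0 ± 19.0 CPM in smooth muscle cells with pericytes (19 UMIs). Sema3e had 142 ± 143 CPM and Sema4f 126 ± 104 CPM in Schwann cells (49 UMIs each), of which a mouse had 8 to 26 nuclei. With such numbers the SD over mice was close to the mean. Clusters were built without the 40 members. Because types come from the same nuclei, all of these levels are descriptions with no test. The heat map of levels by type shows the block of endothelial genes and the separate fibroblast block of Robo1, Slit2 and Slit3.

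**Figure D1:**
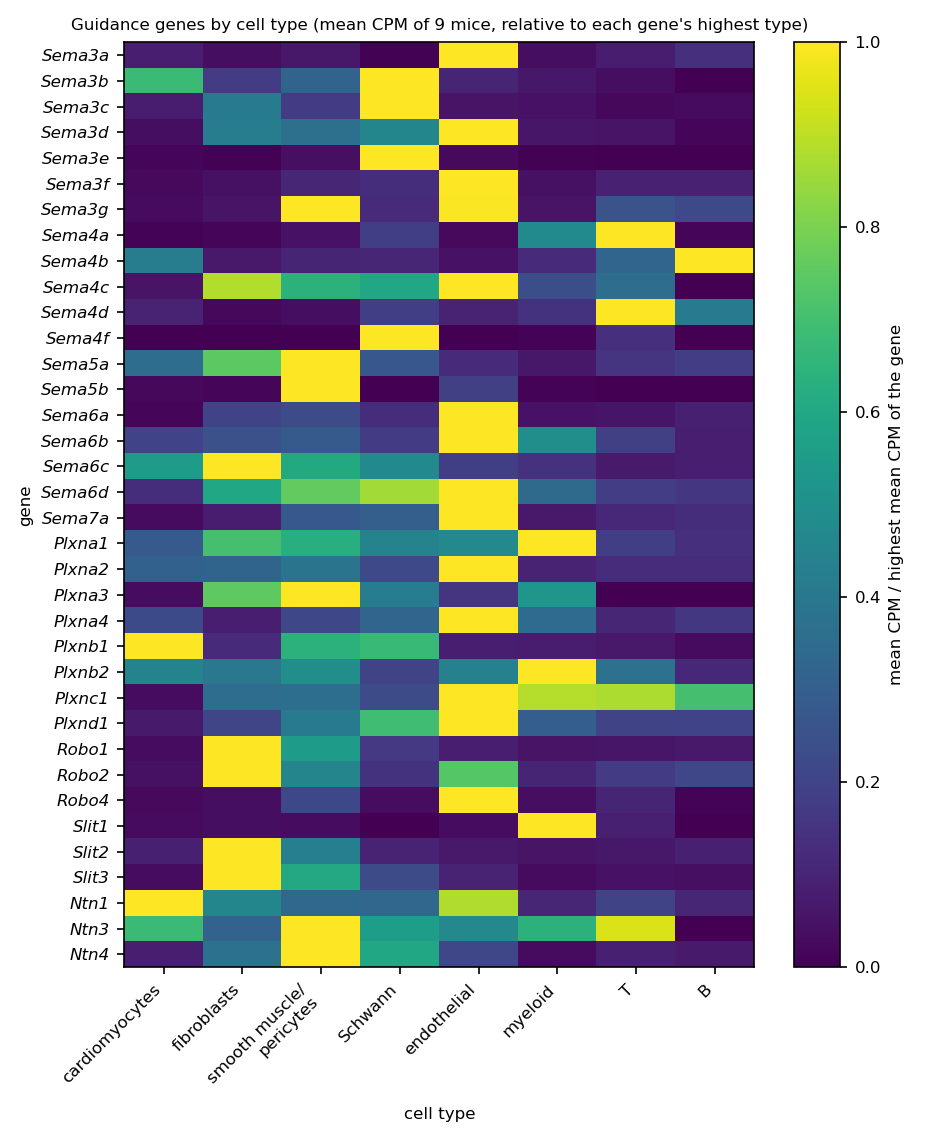
Mean level of each guidance gene with at least 100 UMIs in each of 8 cell types (mean CPM of 9 mice), divided by the level in the gene's highest type, so that colours compare types within a gene and not genes with each other. Sema3a, Sema3f, Sema6a, Sema7a and Robo4 are brightest in endothelial cells, Slit2, Slit3 and Robo1 in fibroblasts, and Slit1 in myeloid cells; Schwann cells and smooth muscle cells rest on few nuclei.

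Within the endothelium, the guidance genes divided further among vessel types. Lymphatic nuclei (854 in all, 55 to 120 per mouse) held 4079 of the 5549 endothelial UMIs of Sema3a (73.5%). Their mean level was 1956 CPM against 127 CPM in endocardial nuclei, 15.5 times higher, in 9 of 9 mice. Sema3d, another secreted class 3 ligand, had 709 ± 111 CPM (SD, n = 9) in lymphatic nuclei and 29.9 CPM in capillary nuclei. Ntn1 had 1175 ± 309 CPM in lymphatic and 341 CPM in endocardial nuclei, and Sema6a had 2942 ± 469 CPM in lymphatic and 1456 CPM in capillary nuclei. These 4 ligands were each highest in lymphatic nuclei in 9 of 9 mice.

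Arterial nuclei held Sema3g, with 351 ± 106 CPM against 29.9 CPM in capillary nuclei, the next highest. Endocardial nuclei held Plxnc1, the receptor of Sema7a, with 250 ± 69 CPM and 91.5% of its endothelial UMIs. They also had the highest endothelial levels of Slit3 (408 ± 233 CPM), Sema6d (328 ± 48.7 CPM) and Plxna4 (1116 ± 214 CPM). Sema7a itself was at 11.2 CPM in endocardial nuclei and at 185 and 182 CPM in capillary and arterial nuclei. Its receptor and the ligand were thus highest in different vessel types. Robo2 and Robo4 were highest in capillary nuclei, with 81.0 CPM and 172 CPM.

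In myeloid cells 6 of the 24 members tested were called in I/R against sham, 2 higher and 4 lower, where 17.7% of all 10928 genes were called, 10% higher and 7.71% lower. The groups did not overlap for 8 members, against 35.6% of all genes. These counts lie near those over all genes, so they are no result about the members as a group. In SBP against sham, 5 of 24 were called, 3 higher and 2 lower, where 12.7% of all genes were called, 7.2% higher and 5.55% lower, and 7 members did not overlap, against 34.1% of all genes. The receptor Plxna4 and the ligands Sema6d, Sema6a and Sema4a fell in I/R, and the receptor Plxna1 and the ligand Sema6b rose. When I/R replicate 1 was left out, 9 of 24 members were called in I/R against sham, 2 higher and 7 lower, where 17.6% of all genes were called. The 6 members kept their calls and Plxnc1, Plxnd1 and Robo2 were added. No I/R mouse reached the filter's minimum for Robo2 in that fit, so its call carries no support from the test. The SBP comparison with sham then gave 6 members, where 14.3% of all genes were called, with Sema6a added.

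Plxna4, a plexin receptor for Sema3a and for class 6 semaphorins, lies at chr6:32144268-32588192 on the minus strand and is overlapped by 3 antisense genes on the other strand. In myeloid cells it had 470, 516 and 383 CPM in the sham mice, 115, 102 and 91.7 CPM in the I/R mice, and 243, 171 and 271 CPM in the SBP mice. The 3 groups did not overlap, with I/R lowest, SBP between and sham highest. The log2 fold change was -2.13 ± 0.19 (SE) in I/R against sham (limma, adjusted p = 3.45e-05) and -1.01 ± 0.19 in SBP against sham (adjusted p = 0.00472). SBP against I/R gave 1.12 ± 0.19, with an unadjusted p of 5.51e-05 and an adjusted p of 0.301, which did not pass. That difference without I/R replicate 1 was 1.20 with an adjusted p of 0.0570.

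Sema6d, a transmembrane ligand and receptor of the class 6 semaphorins, had 124, 107 and 137 CPM in sham, 29.5, 39.2 and 39.2 CPM in I/R, and 60.0, 45.2 and 86.0 CPM in SBP myeloid cells. Again no I/R or SBP mouse reached the lowest sham mouse, and every SBP mouse was above every I/R mouse. It fell by 1.75 on the log2 scale in I/R (adjusted p = 0.000422; by 1.61 without I/R replicate 1) and by 0.98 in SBP (adjusted p = 0.0149). The SBP call was lost when sham replicate 3 (adjusted p = 0.0651) or SBP replicate 2 (adjusted p = 0.0774) was left out. Sema6a had 78.1, 105 and 67.0 CPM in sham, 42.5, 36.8 and 24.7 CPM in I/R, and 56.8, 48.9 and 37.4 CPM in SBP. Injured mice were below all sham mice in both groups. Sema6a fell in I/R by 1.25 (adjusted p = 0.00465; by 1.41 without I/R replicate 1), and in SBP the log2 fold change of -0.79 had an adjusted p of 0.0525.

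Sema4a, a ligand known from antigen-presenting cells, had 136, 128 and 101 CPM in sham, 61.2, 65.4 and 78.9 CPM in I/R and 88.9, 62.7 and 97.3 CPM in SBP myeloid cells. The sham mice were above all others. It fell by 0.81 in I/R (adjusted p = 0.0143; by 0.74 without I/R replicate 1), a call that was lost without sham replicate 1 (adjusted p = 0.0545) or sham replicate 2 (adjusted p = 0.0550).

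Plxna1, a receptor of Sema6d, went the other way. It lies at chr6:89316314-89362620 on the minus strand and had 3.19, 8.51 and 8.56 CPM in sham (24 UMIs), 39.8, 27.9 and 22.6 CPM in I/R and 15.2, 43.7 and 23.3 CPM in SBP myeloid cells. No injured mouse overlapped a sham mouse. Of the sham mice 2 reached the filter's minimum of 7.08 CPM. The log2 fold change was 2.06 ± 0.41 in I/R (adjusted p = 0.00611; 1.85 without I/R replicate 1) and 1.84 ± 0.41 in SBP (adjusted p = 0.0141), and without SBP replicate 2 the latter was 1.45 with an adjusted p of 0.0611. Sema6b, a transmembrane ligand whose upstream sequence is printed above, had 7.97, 4.25 and 4.28 CPM in sham (16 UMIs), 20.6, 43.1 and 31.1 CPM in I/R and 25.6, 16.3 and 18.3 CPM in SBP. All injured mice were above all sham mice, of which 1 reached the filter's minimum. It rose by 2.31 ± 0.33 in I/R (adjusted p = 0.000703; by 2.58 without I/R replicate 1) and by 1.72 ± 0.33 in SBP (adjusted p = 0.00497).

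Plxnb2, a plexin of class B, had 54.2, 54.4 and 60.6 CPM in sham, 109, 87.7 and 64.8 CPM in I/R and 82.5, 98.6 and 83.9 CPM in SBP myeloid cells. The sham mice were the 3 lowest. It rose in SBP by 0.63 (adjusted p = 0.0477), and in I/R the log2 fold change of 0.59 had an adjusted p of 0.0517. The SBP call was lost when any 1 sham or SBP mouse was left out (adjusted p = 0.0746 to 0.178).

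**Figure D2:**
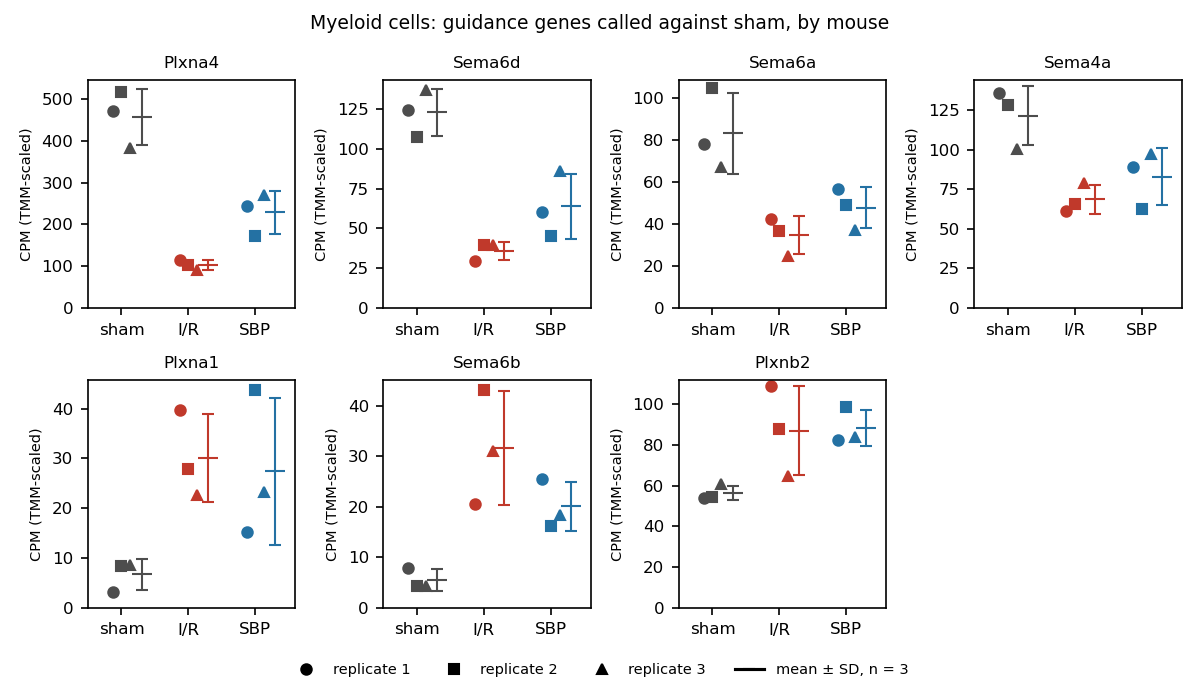
Level in myeloid cells (CPM after TMM scaling, y axis from 0) of the 7 guidance genes called against sham in I/R or SBP mice; each point is 1 mouse, and the bar is the mean ± SD of 3 mice. Plxna4 and Sema6d step from sham down to I/R with SBP between, while Plxna1 and Sema6b are low in all 3 sham mice.

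The myeloid nuclei of sham and injured hearts lay in different clusters. A cluster led by Cd163, a scavenger receptor of resident macrophages, held 89.0% to 94.0% of sham myeloid nuclei, and a cluster led by Gpnmb and Arg1 held 1.5% to 1.88%. The Gpnmb and Arg1 cluster held 47.9% to 73.3% in I/R and 44.0% to 67.5% in SBP mice. In the 6 injured mice both clusters were present and could be set side by side, as a description. Plxna4 was at 78.2 ± 32.4 CPM in the Gpnmb and Arg1 cluster and 347 ± 150 CPM in the Cd163 cluster (SD, n = 6), and Sema6d was at 20 ± 7.18 and 98.8 ± 31.9 CPM. Both were lower in the Gpnmb and Arg1 cluster in 6 of 6 mice. Plxna1 was at 36.8 ± 11.8 and 13.1 ± 4.48 CPM and higher there in 6 of 6 mice, as were Sema4d (66.5 against 27.8 CPM) and Sema4b (19.2 against 8.50 CPM). Sema6b was at 28.1 ± 10.2 and 19.2 ± 8.68 CPM, higher in 5 of 6 mice. The other called members separated the clusters less. Sema6a was at 37.0 ± 11.7 and 47.5 ± 17.4 CPM, lower in the Gpnmb and Arg1 cluster in 4 of 6 mice. Sema4a was at 58.6 ± 9.98 and 102 ± 28.0 CPM, lower in 5 of 6 mice. Plxnb2 was at 93.2 ± 18.9 and 74.6 ± 10.9 CPM, higher in 5 of 6 mice.

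When the Cd163 cluster alone was tested, the result turned on I/R replicate 1. Plxna4 in this cluster had 517, 584 and 406 CPM in sham, 460, 170 and 154 CPM in I/R, and 357, 472 and 472 CPM in SBP mice. I/R replicate 1 lay among the sham mice, the other I/R mice were below all others, and SBP overlapped sham. With all 9 mice the log2 fold change was -1.09 (adjusted p = 0.140) in I/R and -0.18 (adjusted p = 0.878) in SBP against sham. Leaving out I/R replicate 1 gave -1.59 in I/R against sham (adjusted p = 0.000120) and 1.40 in SBP against I/R (adjusted p = 0.00233), from 2 I/R mice.

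With all 9 mice, 1 of 17 members of the Cd163 cluster was called in I/R against sham, where 1.73% of all 9152 genes were called, and 0 in SBP against sham, where 1.54% were called. The 1 call was Sema6b, with a log2 fold change of 2.18, but like Plxna1 it reached the filter's minimum here in no sham mouse and was tested only through injured mice, so the call carries no support. Sema6d had -0.78 (adjusted p = 0.119) in I/R and -0.23 (adjusted p = 0.743) in SBP, and Sema6a had -1.26 (adjusted p = 0.0515) in I/R. With I/R replicate 1 left out, 7 of 18 members were called in I/R against sham, where 6.85% of all genes were called. The 1 that was higher was Sema6b, again tested only through injured mice. The 6 that were lower were Plxna4, Sema6d (-1.05, adjusted p = 0.0121), Sema6a (-1.67, adjusted p = 0.000847), Sema4d (-1.57, adjusted p = 0.0149), Plxnd1 (-1.55, adjusted p = 0.0121) and Plxnc1 (-1.66, adjusted p = 0.00349). In SBP against I/R, Plxna4 and Plxnc1 were then called, both higher in SBP, where 0.294% of all genes were called, and in SBP against sham 0 members were called with limma, where 2.94% were called.

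Genes on the marker lists of other types also moved with the groups. All 7 cardiomyocyte markers had UMIs in myeloid nuclei, and their summed level was 7019 to 8258 CPM in sham, 1882 to 3197 CPM in I/R and 2169 to 2760 CPM in SBP mice. The 8 endothelial markers summed to 384 to 485, 224 to 267 and 208 to 406 CPM, and the 7 B cell markers to 725 to 894, 51.4 to 183 and 196 to 451 CPM. No listed marker of these 3 types was at 0. The B cell list holds Bank1, which the study also lists for its macrophages, and where these transcripts came from was not tested. Without TMM scaling, the mean level of Plxna4 was 225 CPM in sham and 145 CPM in I/R cardiomyocytes, and 472 and 101 CPM in myeloid cells. The part of these transcripts in the myeloid results was not tested.

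In endothelial cells the semaphorins Sema3a and Sema6b rose in I/R. With Sema5b, which was tested only through injured mice, 3 of 30 members were called, all higher, where 3.18% of all 12232 genes were called, 1.85% higher and 1.33% lower. The groups did not overlap for 7 members, against 20.7% of all genes. In SBP against sham 2 of 30 were called, Sema3a and Sema5b, both higher, where 1.92% of all genes were called, 0.621% higher and 1.3% lower, and 9 members did not overlap, against 24.1% of all genes. No plexin, Robo receptor, Slit ligand or netrin was called in endothelial cells in either comparison.

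Sema3a lies at chr5:13125414-13602565 on the plus strand. In all endothelial nuclei it had 136, 128 and 57.6 CPM in sham, 248, 502 and 328 CPM in I/R and 300, 309 and 269 CPM in SBP mice. All 6 injured mice were above all sham mice. The log2 fold change was 1.77 ± 0.33 (SE) in I/R (limma, adjusted p = 0.0203) and 1.54 ± 0.33 in SBP (adjusted p = 0.0446). Without I/R replicate 2 the I/R value was 1.49 with an adjusted p of 0.0592. The SBP call was lost in 7 of 9 fits that left out 1 mouse (adjusted p = 0.0522 to 0.120), and the log2 fold change was 1.15 to 1.76 in those fits.

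Since most Sema3a UMIs came from lymphatic nuclei, these were also tested alone, a test added after the levels were seen. Scaled to library totals, lymphatic Sema3a was 925, 787 and 859 CPM in sham, 1945, 3308 and 3098 CPM in I/R, and 2227, 2224 and 2230 CPM in SBP mice. Every injured mouse was above every sham mouse, and the 3 SBP mice lay close together. The log2 fold change was 1.70 in I/R (adjusted p = 4.44e-06) and 1.45 in SBP (adjusted p = 9.36e-05), and Sema3a was the 1 member called of 15 tested in both comparisons. In these nuclei 2.93% of 5047 genes were called in I/R against sham and 1.37% in SBP against sham. Lymphatic Sema3a without I/R replicate 1 had 1.95 (adjusted p = 9.43e-09) in I/R. Lymphatic nuclei made up 3.47% to 8.33% of endothelial nuclei in sham, 5.94% to 7.56% in I/R and 5.99% to 7.66% in SBP mice. In capillary nuclei alone and in endocardial nuclei alone no member was called in either comparison, with 25 and 24 members tested. In I/R against sham 3.72% and 0.675% of all genes were called there, and in SBP against sham 1.94% and 0.474%. When I/R replicate 1 was left out, Plxnd1, Sema5a and Robo2 were called in capillary nuclei (5.29% of all genes) and Slit3 in endocardial nuclei (1.14%) in I/R against sham, and Plxnd1 in capillary nuclei (3.06%) in SBP against sham.

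Sema5b was near the limit of detection. It had 0.549, 0.325 and 0.811 CPM in sham (4 UMIs in all), 7.78, 3.88 and 3.63 CPM in I/R (36 UMIs) and 6.42, 3.16 and 4.35 CPM in SBP (35 UMIs). No injured mouse overlapped a sham mouse. The filter's minimum of 4.09 CPM was reached by 1 I/R, 2 SBP and 0 sham mice, so it was tested only through injured mice, and without I/R replicate 1 it did not pass the filter. The log2 fold changes were 1.91 ± 0.39 in I/R and 1.83 ± 0.39 in SBP. Sema6b had 30.7, 22.8 and 32.4 CPM in sham, 41.6, 52.6 and 57.1 CPM in I/R and 40.4, 29.8 and 34.4 CPM in SBP. The I/R mice were above all sham mice, while SBP overlapped sham. It rose in I/R by 0.80 ± 0.19 (adjusted p = 0.0461), a call lost in 8 of 9 fits without 1 mouse (adjusted p = 0.0536 to 0.172), and in SBP the log2 fold change was 0.28 (adjusted p = 0.533).

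The 7 cardiomyocyte markers summed to 8779 to 11147 CPM in sham endothelial nuclei, 3232 to 5675 CPM in I/R and 3258 to 4358 CPM in SBP, and none was at 0. These sums were lower in the injured mice, and their part in the endothelial results was not tested. Without I/R replicate 1, 7 members were called in I/R against sham, where 4.22% of all genes were called. These were Sema3a (2.01, adjusted p = 0.0119), Sema6b (0.93, adjusted p = 0.0347), Sema3g, Sema5a, Slit3, Robo2 and Plxnd1, 5 higher and 2 lower. Sema3a alone was called in SBP against sham in that fit (adjusted p = 0.0277), where 2.58% of all genes were called.

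In fibroblasts 4 of 30 members tested were called in I/R against sham, 1 higher and 3 lower, where 11.2% of all 13076 genes were called, 6.45% higher and 4.8% lower. The groups did not overlap for 7 members, against 26.9% of all genes. Sema6b rose, and Sema6a, Robo2 and Plxna4 fell. In SBP against sham no member was called with limma, where 5.85% of all genes were called, 3.68% higher and 2.17% lower. An unadjusted p under 0.05 was found for 6 members, against 19.6% of all genes, and 8 members did not overlap, against 26.9% of all genes. Slit2, Slit3 and Robo1, for which fibroblasts had the highest levels, were called in neither comparison.

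Sema6a had 258, 334 and 325 CPM in sham, 191, 164 and 174 CPM in I/R and 241, 207 and 237 CPM in SBP fibroblasts. The groups did not overlap, with I/R lowest and SBP between. It fell in I/R by 0.78 on the log2 scale (SE 0.15, adjusted p = 0.00525), by 0.83 without I/R replicate 1, and SBP against sham gave -0.41 (adjusted p = 0.132). Removing the nuclei in which 3 or more markers of another type were detected turned the I/R direction to 0.27 (adjusted p = 0.575). That fit kept 42 to 115 fibroblast nuclei per sham mouse. Robo2, a Slit receptor, had 81.3, 95.7 and 72.1 CPM in sham, 64.4, 23.2 and 31.7 CPM in I/R and 41.3, 52.6 and 58.3 CPM in SBP. All injured mice were below all sham mice. It fell in I/R by 1.16 (adjusted p = 0.0327), and in SBP the value was -0.70 (adjusted p = 0.231).

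Plxna4 had 101, 134 and 70.0 CPM in sham, 67.7, 44.5 and 22.9 CPM in I/R and 47.9, 42.8 and 58.3 CPM in SBP fibroblasts. The lowest sham mouse was just above the highest I/R mouse. It fell in I/R by 1.24 (adjusted p = 0.0483), and in SBP the value was -0.98 (adjusted p = 0.150). Sema6b had 7.19, 5.03 and 3.85 CPM in sham (41 UMIs), 8.96, 16.7 and 11.4 CPM in I/R (145 UMIs) and 13.0, 8.41 and 9.50 CPM in SBP. Injured mice were above all sham mice. It rose in I/R by 1.06 (adjusted p = 0.0388), and in SBP the value was 0.84 (adjusted p = 0.132). When 1 mouse was left out, the calls were lost for Plxna4 in 8 fits (adjusted p = 0.0529 to 0.13), Sema6b in 6 fits (0.0511 to 0.152) and Robo2 in 5 fits (0.0792 to 0.112), while Sema6a kept its call in all 9.

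**Figure D3:**
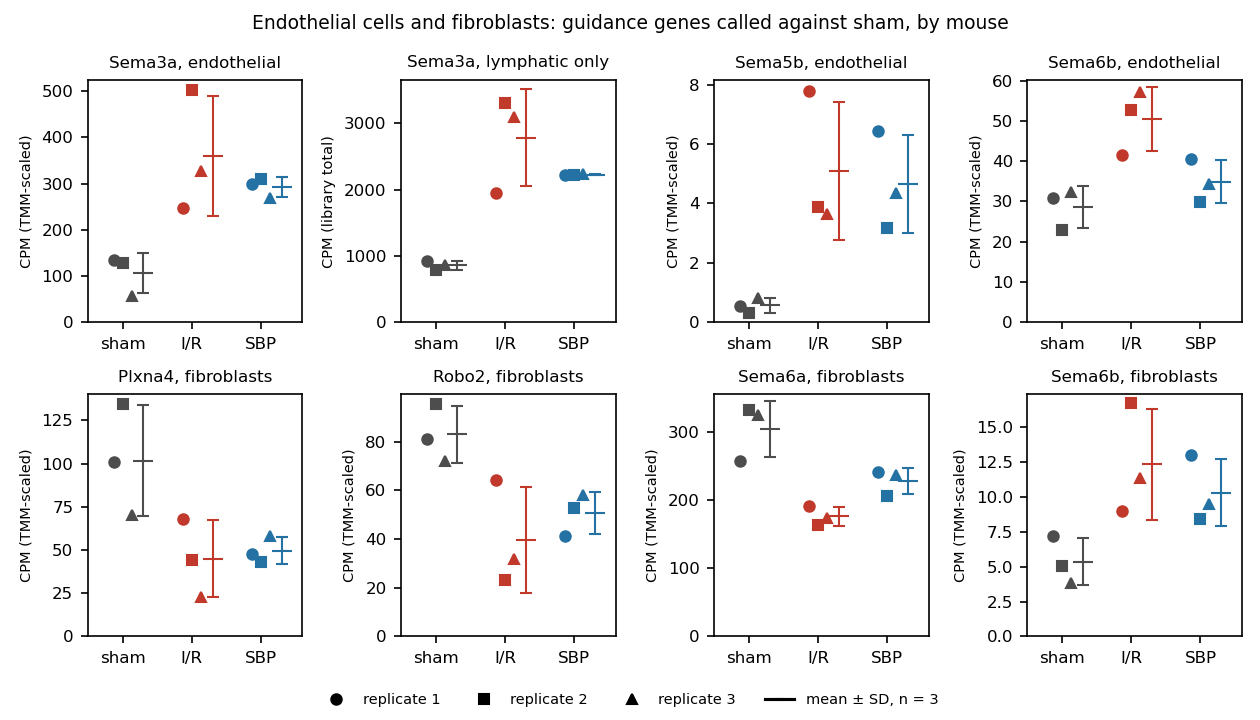
Levels of the guidance genes called against sham in endothelial cells or fibroblasts (CPM, y axes from 0; TMM-scaled except lymphatic Sema3a, which is scaled to library totals); each point is 1 mouse, and the bar is the mean ± SD of 3 mice. Sema3a and Sema5b are higher in all 6 injured mice than in sham mice, and fibroblast Plxna4, Robo2 and Sema6a are lower.

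A fibroblast cluster led by Tnc and Postn, matrix genes of activated fibroblasts, held 0.135% to 0.283% of sham fibroblasts, 8.66% to 31.3% in I/R and 8.34% to 19.8% in SBP mice. In the 6 injured mice Sema6a was at 131 ± 15.9 CPM in this cluster and 234 ± 34.6 CPM in the main fibroblast cluster (SD, n = 6), lower in 6 of 6 mice. Sema3c (22.8 against 80.6 CPM), Ntn1 (68.6 against 193 CPM), Ntn4 (39.8 against 117 CPM) and Slit3 (1604 against 2419 CPM) were also lower there in 6 of 6 mice. Sema7a (21.8 against 3.97 CPM), Plxna3 (12.5 against 3.62 CPM) and Sema6b (16.8 against 9.31 CPM) were higher in 6 of 6 mice. Plxna4 (44.7 against 50.5 CPM) did not separate the clusters, with 2 of 6 mice higher. In the main cluster alone no member was called in I/R against sham, where 4.06% of all genes were called, and Sema6a had a log2 fold change of -0.52 (adjusted p = 0.0917) in I/R. In the fit without I/R replicate 1, 6 of 29 members were called in that cluster in I/R against sham, where 7.76% of all genes were called. These were Plxna4 (-1.69, adjusted p = 0.00318), Robo2 (-1.57, adjusted p = 0.00252), Sema6a (-0.63, adjusted p = 0.0340), Sema5a, Sema6d and Slit3, the last 3 higher.

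The 7 cardiomyocyte markers summed to 5391 to 6890 CPM in sham fibroblasts, 1689 to 2840 CPM in I/R and 1890 to 2767 CPM in SBP, and the 6 Schwann cell markers to 317 to 431, 160 to 287 and 188 to 347 CPM. No marker of these lists was at 0. Where these transcripts came from, and their part in the fibroblast and endothelial results, were not tested. Without I/R replicate 1 the I/R against sham count was 7 of the members tested, 3 higher and 4 lower, where 10.4% of all genes were called. Plxna4 (-1.57, adjusted p = 0.00819), Robo2 (-1.55, adjusted p = 0.000881), Sema6b and Sema6a kept their calls, and Sema3c, Sema5a and Slit3 were added. Robo2 and Sema5a were then called in SBP against sham, where 7.28% of all genes were called.

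In cardiomyocytes 0 of 31 members were called with limma in I/R against sham, where 0.799% of all 12898 genes were called, 0.636% higher and 0.163% lower. SBP against sham also gave 0, where 0.132% were called, 0.116% higher and 0.0155% lower. The numbers of members with an unadjusted p under 0.05 were 8 and 6, against 14.2% and 13.3% of all genes, and 6 and 10 members did not overlap, against 16.3% and 23.1% of all genes. These fits hold the I/R library that stood apart. Without it, 7 members were called in I/R against sham, 3 higher and 4 lower, where 6.14% of all genes were called, and 2 in SBP against sham, where 2.15% were called. That library was set apart because its cardiomyocytes lay with those of sham. The I/R calls gained in cardiomyocytes without it therefore carry no independent support. SBP against sham holds no I/R mouse, but its estimate of the spread comes from all mice in the fit.

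Ntn1, at chr11:68209364-68400823 on the minus strand, had 253, 188 and 199 CPM in sham, 227, 372 and 355 CPM in I/R and 457, 461 and 530 CPM in SBP cardiomyocytes. All SBP mice were above all others, and I/R replicate 1 lay within the sham range. The log2 fold change was 0.55 ± 0.21 (SE) in I/R (limma, adjusted p = 0.275), 1.18 ± 0.21 in SBP against sham (adjusted p = 0.0638), and 0.63 ± 0.21 in SBP against I/R (unadjusted p = 0.0123, adjusted p = 1.00). Ntn1 without I/R replicate 1 was called in both comparisons with sham, and SBP against I/R gave 0.41 (adjusted p = 0.935).

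Plxnb1 had 76.8, 59.4 and 56.3 CPM in sham, 53.0, 16.2 and 10.1 CPM in I/R and 21.4, 33.5 and 27.4 CPM in SBP cardiomyocytes. All injured mice were below all sham mice, and I/R replicate 1 was closest to sham. Its log2 fold change of -1.57 in I/R had an adjusted p of 0.177 and that of -1.21 in SBP an adjusted p of 0.305. Plxnb1 too was called in both comparisons without I/R replicate 1. Sema5a had 55.1, 13.5 and 38.7 CPM in sham, 36.9, 171 and 260 CPM in I/R, and 286, 86.4 and 98.1 CPM in SBP. I/R replicate 1 again lay among the sham mice. The other members called without it in I/R against sham were Sema5a, Robo2, Sema3c, Sema6d and Sema3e, of which Sema3e was tested only through injured mice.

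Sema6d had 34.9, 41.3 and 33.4 CPM in sham, 31.5, 24.0 and 14.4 CPM in I/R and 22.9, 25.9 and 25.1 CPM in SBP cardiomyocytes, with all injured mice below sham. The log2 fold changes of -0.69 in I/R (adjusted p = 0.232) and -0.55 in SBP (adjusted p = 0.356) did not pass. SBP against I/R gave 0.14 (adjusted p = 1.00), -0.16 without I/R replicate 3 and 0.39 without I/R replicate 1. Robo1 had 9.62, 12.4 and 6.08 CPM in sham, 5.71, 6.09 and 5.60 CPM in I/R and 9.92, 5.88 and 27.2 CPM in SBP. SBP replicate 3 stood far above the others, and SBP replicate 2 lay within the I/R range. The value for SBP against I/R was 0.92 ± 0.43 (adjusted p = 1.00), and 0.92 without I/R replicate 1.

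Slit3 had 82.1, 83.1 and 52.8 CPM in sham, 55.1, 63.4 and 59.6 CPM in I/R and 99.8, 47.2 and 103 CPM in SBP cardiomyocytes. The SBP mice spanned the other groups. The SBP mice gave 0.40 ± 0.28 against I/R (adjusted p = 1.00). Slit2 had 44.5, 52.8 and 61.0 CPM in sham, 43.5, 37.3 and 39.5 CPM in I/R and 49.6, 52.0 and 66.0 CPM in SBP, with every I/R mouse below all others. SBP against I/R was 0.46 ± 0.17 (unadjusted p = 0.0219, adjusted p = 1.00). Sema3b had 13.8, 21.5 and 14.3 CPM in sham, 11.6, 17.9 and 14.5 CPM in I/R and 23.3, 24.8 and 18.1 CPM in SBP. The SBP mice were above the I/R mice by a narrow margin. Against I/R the SBP value was 0.57 ± 0.23 (unadjusted p = 0.0286, adjusted p = 1.00). These differences without I/R replicate 1 were 0.36 for Slit3, 0.53 for Slit2 and 0.43 for Sema3b (adjusted p = 0.884 to 0.994).

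**Figure D4:**
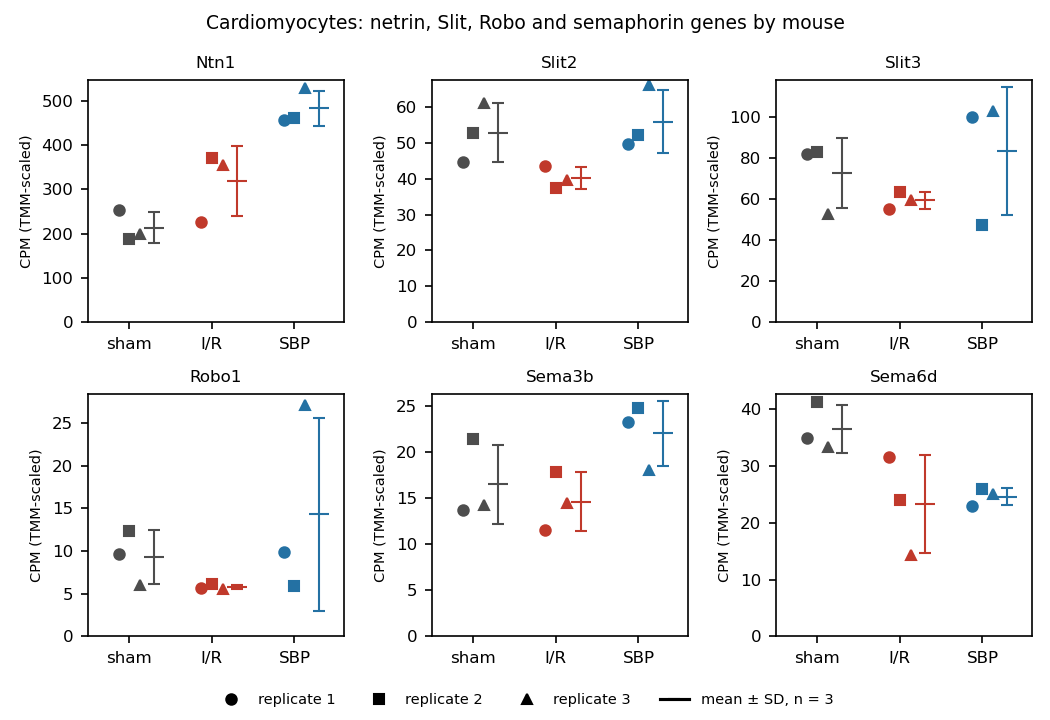
Level in cardiomyocytes (CPM after TMM scaling, y axis from 0) of 6 guidance genes by mouse, with the mean ± SD of 3 mice. Ntn1 is highest in the 3 SBP mice, with I/R replicate 1 (circle) near the sham mice, while Slit3 and Robo1 vary widely among SBP mice.

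Cardiomyocytes of sham and injured mice lay mostly in different clusters, as described for I/R replicate 1 above. In the cluster led by Ankrd1, a stress-response gene, alone, no member was called in any comparison, with 29 members tested. Of all genes, 0.289% were called in I/R against sham, and 0% in SBP against I/R and in SBP against sham. Ntn1 gave 0.79 in SBP against I/R in this cluster (adjusted p = 1.00). Ntn1 was called there without I/R replicate 1 in SBP against sham (1.42, adjusted p = 0.0435), where 0.0415% of all genes were called. That cluster held 35 to 118 nuclei per sham mouse. The 11 myeloid markers in cardiomyocyte nuclei summed to 56.7 to 66.7 CPM in sham, 95.8 to 193 CPM in I/R and 62.6 to 89.6 CPM in SBP mice, with none at 0.

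SBP against I/R gave 0 called members with limma in each of the 4 main types, and 0% of all genes were called there. The members with an unadjusted p under 0.05 numbered 3 of 31 in cardiomyocytes, 6 of 30 in endothelial cells, 2 of 30 in fibroblasts and 2 of 24 in myeloid cells. For all genes the shares were 2.08%, 5.04%, 3.49% and 3.9%. In the same order, 3, 6, 1 and 2 members did not overlap between SBP and I/R, against 5.61%, 9.34%, 8.32% and 9.15% of all genes. The myeloid members were Plxna4 and Sema6d, described above. No member was called with limma without I/R replicate 1 in any of these types, where 0% of all genes were called in 3 types and 0.0927% in myeloid cells.

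In endothelial cells the 3 members with the smallest unadjusted p were Sema3e, Sema3g and Sema4d. Sema3e had 0.458, 1.73 and 2.91 CPM in I/R (13 UMIs) and 6.42, 5.88 and 5.94 CPM in SBP (45 UMIs), with 6.58, 1.95 and 2.03 CPM in sham. SBP was above I/R in every mouse, and the log2 fold change was 1.5 ± 0.47 (unadjusted p = 0.00731, adjusted p = 0.970). The filter's minimum of 4.09 CPM was reached by all 3 SBP mice and by no I/R mouse. The Sema3e values against I/R therefore carry no support from the test, although the gene is among the endothelial counts above. Sema3g had 33.9, 67.3 and 54.5 CPM in I/R, 37.0, 19.0 and 31.3 CPM in SBP and 24.7, 19.2 and 25.9 CPM in sham. The I/R and SBP mice overlapped, with -0.81 ± 0.28 (unadjusted p = 0.0147, adjusted p = 0.970). Sema4d had 30.2, 30.2 and 22.5 CPM in I/R, 60.8, 42.0 and 36.4 CPM in SBP and 37.9, 46.9 and 23.5 CPM in sham. SBP mice were above all I/R mice and overlapped sham, with 0.71 ± 0.26 (unadjusted p = 0.0196, adjusted p = 0.970). The differences without I/R replicate 1 were 1.12 for Sema3e, -1.08 for Sema3g and 0.78 for Sema4d (adjusted p = 0.460 to 0.729).

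In fibroblasts Sema6a gave 0.37 ± 0.15 in SBP against I/R (unadjusted p = 0.0260, adjusted p = 1.00), and all SBP mice were above all I/R mice in the values given above. Sema6d had 112, 159 and 179 CPM in I/R, 121, 106 and 103 CPM in SBP and 131, 120 and 126 CPM in sham fibroblasts. I/R and SBP overlapped, with -0.41 ± 0.17 (unadjusted p = 0.0342). Robo1 had 291, 254 and 181 CPM in I/R, 248, 338 and 320 CPM in SBP and 323, 335 and 317 CPM in sham, with 0.33 ± 0.18 (unadjusted p = 0.0953). Sham Robo1 values lay close together while the injured groups spread and overlapped. In myeloid cells Sema6a gave 0.46 ± 0.24 (unadjusted p = 0.0816). The fibroblast values without I/R replicate 1 were 0.43 for Sema6a, -0.61 for Sema6d and 0.48 for Robo1, and the myeloid values 0.64 for Sema6d and 0.62 for Sema6a (adjusted p = 0.477 to 0.774). A p that misses the threshold does not show that SBP and I/R mice were alike.

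Whether the change of a gene between groups varied with cell type was tested directly, on sums over all nuclei of a type. The shares of clusters within a type differed between groups, as given above, and their part in these differences was not tested. For each gene and pair of main types, the difference of the 2 effects was tested with limma on the difference between types within each mouse, with adjustment over all genes and the 6 pairs. Of 153 tests of members per comparison, 11 passed in I/R against sham, 5 in SBP against sham and 0 in SBP against I/R. The share passing over all genes is not given here, so these counts are no result about the members as a group. In I/R the effects on Plxna1 and Sema6b were larger in myeloid cells than in each of the other 3 main types. The other type minus myeloid cells was -2.14 to -1.98 for Plxna1 and -1.77 to -1.25 for Sema6b on the log2 scale (adjusted p = 0.00934 to 0.0443). The fall of Plxna4 in myeloid cells exceeded its change in endothelial cells by 2.14 (adjusted p = 0.00389) and in cardiomyocytes by 1.42 (adjusted p = 0.0403). The change of Sema6d was lower in myeloid cells than in endothelial cells by 1.74 (adjusted p = 0.0160) and than in fibroblasts by 1.97 (adjusted p = 0.00688), where its own log2 fold changes were -0.0065 and 0.22. Sema3a differed between endothelial cells and fibroblasts, by 1.42 in I/R (adjusted p = 0.0304) and by 1.60 in SBP (adjusted p = 0.0213). Without I/R replicate 1, 7 of the 11 I/R differences and 5 of the 5 SBP differences still passed. Those lost were the 3 of Plxna1 in I/R (adjusted p = 0.0543 to 0.0870) and that of Plxna4 between cardiomyocytes and myeloid cells (adjusted p = 0.0886). Those gained were cardiomyocytes minus fibroblasts for Plxnb1 (-2.14, adjusted p = 0.0114) and Sema6c (-1.39, adjusted p = 0.0495), so that 9 passed in I/R.

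**Figure D5:**
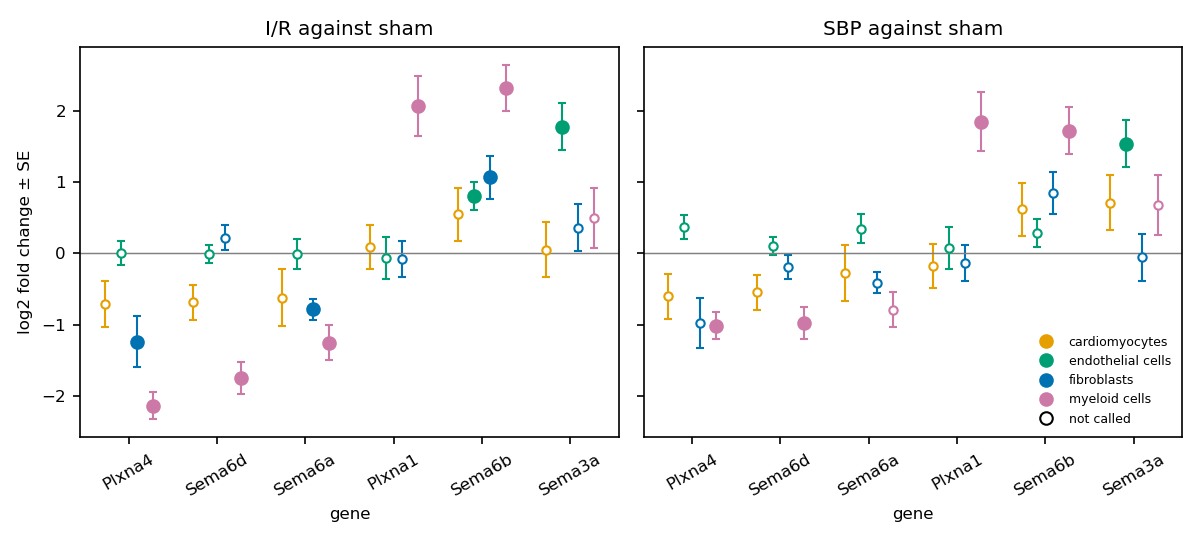
Log2 fold change against sham (± SE, on log2 of TMM-scaled CPM + 1) of 6 guidance genes in the 4 main cell types, for I/R (left) and SBP (right); filled points were called and open points were not. Plxna4 and Sema6d lie lowest and Plxna1 and Sema6b highest in myeloid cells, and Sema3a is highest in endothelial cells.

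Partners of these families were taken from lists of 18 co-receptors and other receptors, 23 signal transducers and 22 ephrins and Eph receptors. In myeloid cells 3 of the 8 co-receptors and other receptors tested were called in I/R against sham, 2 higher and 1 lower, with a median log2 fold change over the 8 of -0.32 against 0.08 over all genes, of which 17.7% were called. Nrp2, the co-receptor of Sema3f, had 115, 134 and 150 CPM in sham, 297, 298 and 268 CPM in I/R and 207, 295 and 291 CPM in SBP myeloid cells. All injured mice were above sham, and Nrp2 rose by 1.11 in I/R (adjusted p = 0.00125) and 0.97 in SBP (adjusted p = 0.00336). Met, the hepatocyte growth factor receptor that can pair with class B plexins, was also called, but it had 1.70 to 3.57 CPM in sham against 8.53 to 51.3 CPM in I/R and 9.61 to 26.8 CPM in SBP and reached the filter's minimum only in injured mice. Cd72, an immune receptor of Sema4d, fell by 1.79 (adjusted p = 0.00693) and by 1.42 (adjusted p = 0.0270).

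Flrt2 (1.20, adjusted p = 0.0104) and Rgmb (-0.93, adjusted p = 0.0475) were also called in myeloid cells in SBP against sham, 5 of 8 in all, Met included, where 12.7% of all genes were called. Of the 19 signal transducers tested there, 4 were called in I/R, all lower: Ablim1, Ablim3, Farp2 and Fyn, against 17.7% of all genes. In SBP 2 were called, against 12.7% of all genes, Ablim1 (-1.04, adjusted p = 0.0162) and Farp2 (-1.09, adjusted p = 0.00995), and none was higher. Farp2 is a guanine nucleotide exchange factor that binds plexin A receptors, and Ablim1 and Ablim3 bind actin. Of 5 ephrins and Eph receptors, Epha4 fell in both comparisons (-1.21 and -1.23) and Efna5 fell in SBP (-0.95).

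In fibroblasts 2 of 11 co-receptors and other receptors were called in I/R, Rgma (-1.05, adjusted p = 0.0281) and Rgmb (-1.13, adjusted p = 0.0412), both ligands of neogenin and both lower, where 11.2% of all genes were called. Of 20 signal transducers 3 were called in I/R, 2 higher and 1 lower, against the same 11.2%. Dpysl3, a collapsin response mediator that acts on the cytoskeleton, had 105, 171 and 128 CPM in sham, 460, 372 and 263 CPM in I/R and 390, 389 and 307 CPM in SBP. All injured mice were above sham, and Dpysl3 rose by 1.43 in I/R (adjusted p = 0.00205) and 1.44 in SBP (adjusted p = 0.00302). Rnd1, a small GTPase that binds plexins, was among the 3 with 0 to 1.35 CPM in sham and 6.37 to 35.7 CPM in I/R, but no sham mouse reached the filter's minimum, so it was tested only through injured mice. Of 15 ephrins and Eph receptors, Ephb2 rose by 1.75 (adjusted p = 0.0124) and Epha4 fell by 0.91 (adjusted p = 0.0465). Ablim3 was called in SBP (-0.84, adjusted p = 0.0422), where 5.85% of all genes were called.

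In endothelial cells Srgap3, a GTPase-activating protein that acts downstream of Slit and Robo, was the 1 partner called, at 1.09 in I/R (adjusted p = 0.0182), among 11 co-receptors and other receptors, 21 signal transducers and 10 ephrins and Eph receptors tested, where 3.18% of all genes were called. In cardiomyocytes, of 10, 21 and 13 tested, limma called 0 in either comparison with sham, where 0.799% (I/R) and 0.132% (SBP) of all genes were called, with a smallest adjusted p of 0.0933. Nothing on the 3 lists was called in SBP against I/R in any main type, with or without I/R replicate 1. Without that library, Ablim3 in myeloid cells (adjusted p = 0.0992) and Rgma in fibroblasts (adjusted p = 0.0768) lost their calls in I/R against sham, and the other partners called in that comparison kept theirs. In cardiomyocytes 5 partners were then called in I/R, all lower, which were Rgma, Dpysl4, Efnb3, Epha6 and Ephb1, where 6.14% of all genes were called. Flrt2, Efnb3, Epha4 and Ephb1 in endothelial cells (4.22% of all genes), Flrt2 and Ablim3 in fibroblasts (10.4%) and Srgap3 in myeloid cells (17.6%) were added in I/R, all lower. The additions in SBP against sham went both ways, with Epha6 in cardiomyocytes (2.15% of all genes) and Efnb3 in endothelial cells (2.58%) lower, and Epha7 in endothelial cells and Ephb2 and Rnd1 in fibroblasts (7.28%) higher, of which Rnd1 was tested only through injured mice.

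Among the rarer types only T cells had enough nuclei in all mice for a fit. Sema4a and Sema4d were the 2 members that passed the filter there, and neither was called. Sema4d gave 0.81 in I/R (adjusted p = 0.208) and 0.73 in SBP against sham (adjusted p = 0.439), where 1.06% and 0.0921% of all 2172 genes were called. No test between groups was made in the other 3 rarer types.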

How the data were processed

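Nuclei of 9 mouse hearts were profiled on a 10x Genomics platform. Per the labels, the authors used Cell Ranger 4.0, STAR, Seurat 3.2.0 and the GRCm38 genome, where the study's methods name later versions of Cell Ranger and Seurat; these methods also describe down-sampling of reads and filters of more than 200 genes and under 10% mitochondrial UMIs per nucleus, with mitochondrial genes removed. The files held 49171 nuclei, fewer than the study's text gives, and as each had at least 405 genes, the stated gene filter removes none; the reason for the difference was not examined. The deposited values are natural log values, ln(1 + 10000 × UMIs / total UMIs) per gene and nucleus. Whole UMI counts were recovered from the steps between values (tolerance 0.1) and summed per mouse and cell type. The samples held 10329520 to 18205985 UMIs, and values from few UMIs carry counting error beside the spread between mice.

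Nuclei were clustered on 2000 variable genes without the 40 guidance genes (30 principal components, 20 neighbours, Leiden resolution 0.3; endothelial nuclei again with 20 components and resolution 0.2) in Python 3.11.15 with numpy 2.4.6, scipy 1.17.1, pandas 2.3.3, igraph 0.11.9 and leidenalg 0.10.2, and named from marker lists. Endothelial subclusters led by cardiomyocyte or neutrophil genes were left unnamed, but their 689 nuclei stayed in the endothelial sums and tests. They made up 5.26% to 11.7% of endothelial nuclei in sham, 2.27% to 4.19% in I/R and 2.85% to 4.18% in SBP mice. No doublet caller was run; nuclei with 3 or more markers of another type were removed in an alternative.

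Sums of at least 20 nuclei were tested with limma 3.58.1 (R 4.3.3, statmod 1.5.0, trend and robust) on log2(CPM + 1) after TMM scaling, with all 9 mice in 1 fit. A gene needed the CPM of 10 UMIs in the median library in 3 samples and 15 UMIs in all. Thresholds for calls were 0.05 on the Benjamini-Hochberg adjusted p and 0.25 on the absolute log2 fold change. Log2(CPM + 1) understates changes of low genes. Each mouse was taken as 1 replicate.

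Values per mouse are given for every called member and for Ntn1, Robo1, Sema6d and Slit3 in cardiomyocytes and Plxna4 in myeloid cells. They are also given for the 3 members with the smallest unadjusted p in SBP against I/R per type. Members at least 3 times higher in 1 type with 100 UMIs or more are given by their range or mean over mice. Plxnb1, Sema5a, Sema6b and Plxna4 in other types and the partner genes shown were named after their values were seen. The members and lists were chosen with earlier results of these data known. Gene positions are GRCm38 with GENCODE vM21, promoters RefSeq GRCm38.p6. Nuclear RNA was counted without a stated strand setting, and how reads of overlapping genes on either strand were assigned was not examined. Alternatives covered scaling, pseudocount, filter, voom weights, samples fitted, typing of nuclei, doublet-like nuclei, single clusters (also without I/R replicate 1, added after seeing the data), a replicate block and leaving out each mouse. Figures were drawn with matplotlib 3.10.9.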

Additional observations from a re-analysis of the deposited data

Results flagged for a closer look

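The change from sham differed between cell types for 5 guidance genes in I/R mice and for 4 of them in SBP mice. The difference itself was tested (limma on within-mouse differences between types, adjusted over all genes and 6 type pairs). SBP mice had the surgery as well as SBP, and in SBP against I/R 0 of 153 tests passed. The share passing over all genes is not given here. The part of shifts between clusters within a type was not tested. For Plxna1 in I/R against sham, the effect in cardiomyocytes minus that in myeloid cells was -1.98, in endothelial cells minus myeloid cells -2.13, and in fibroblasts minus myeloid cells -2.14 on the log2 scale. In SBP against sham the cardiomyocyte difference was -2.02. For Plxna4 in I/R, cardiomyocytes minus myeloid cells gave 1.42 and endothelial cells minus myeloid cells 2.14, and in SBP the endothelial difference was 1.38. For Sema6b in I/R, cardiomyocytes, endothelial cells and fibroblasts minus myeloid cells gave -1.77, -1.52 and -1.25, and in SBP endothelial cells and fibroblasts gave -1.44 and -0.88. For Sema6d in I/R, endothelial cells minus myeloid cells gave 1.74 and fibroblasts minus myeloid cells 1.97. For Sema3a, endothelial cells minus fibroblasts gave 1.42 in I/R and 1.60 in SBP. Without I/R replicate 1, the 3 Plxna1 differences in I/R no longer passed, nor did Plxna4 between cardiomyocytes and myeloid cells (adjusted p = 0.0543 to 0.0886). The gap test for single outlying samples needs groups of at least 4 and was not run on these groups of 3 mice.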

How the results depend on the processing

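Over 310 recounts of called members, 237 stayed within 1.5 times the main count and 73 did not. SBP against I/R gave 0 called members in its 104 recounts except for 2 in the Cd163 cluster without I/R replicate 1 (0.294% of all genes). Of 856 repeats of the 35 named tests, 707 kept direction and call, 142 lost the call, 1 gained it (Plxna4 in that same fit) and 6 reversed, and of the 20 called tests 0 kept the call under every alternative. Percentages in brackets are the share of all genes called in the same fit. Leaving out 1 mouse gave 0 to 7 called members in cardiomyocytes (0.18% to 6.14%), 0 to 7 in endothelial cells (0.622% to 5.13%), 1 to 7 in fibroblasts (5.99% to 12.9%) and 5 to 9 in myeloid cells (10.8% to 17.6%) for I/R against sham, and 0 to 2 (0% to 2.15%), 0 to 2 (0.362% to 2.95%), 0 to 2 (2.59% to 7.28%) and 2 to 6 (5.62% to 15.6%) for SBP against sham. The highest I/R counts all came without I/R replicate 1. The cause of the changes below was not tested.

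In SBP against sham, cardiomyocytes gave 3 members with only the 6 samples compared (3.23%) and 2 with types from marker levels (0.931%). Endothelial cells gave 1 with pseudocount 5 (2.06%), without a low filter (1.33%), with lymphatic nuclei only (1.37%) and without doublet-like nuclei when cardiomyocyte markers were not counted (1.96%). They gave 0 with the mean of deposited log values (1.83%), types from marker levels (1.02%), without doublet-like nuclei (0%), and in the largest cluster (3.25%), capillary (1.94%) or endocardial nuclei (0.474%) only. Fibroblasts gave 3 with only the 6 samples (8.24%) and 1 without doublet-like nuclei (1.53%). Myeloid cells gave 3 with the mean of log values (10.4%), 2 with voom weights (8.55%), 2 without doublet-like nuclei (12.6%) and 0 in the Cd163 cluster (1.54%). In I/R against sham, endothelial cells gave 1 with the mean of log values (2.68%), only 6 samples (2.13%) or lymphatic nuclei (2.93%), and 0 without doublet-like nuclei (0.0549%), in the largest cluster (4.98%), capillary (3.72%) or endocardial nuclei (0.675%). Fibroblasts gave 2 with library totals (11%) or voom (8.27%), 1 with the mean of log values (5.74%), only 6 samples (7.73%) or without doublet-like nuclei (2.63%), and 0 in the largest cluster (4.06%). Myeloid cells gave 1 in the Cd163 cluster (1.73%). Without I/R replicate 1, lymphatic nuclei gave 1 for I/R (3.12%) and 1 for SBP (1.77%), each against sham, and endocardial nuclei gave 1 for I/R (1.14%) and 0 for SBP (0.693%). Leaving that library out of SBP against sham also gave 1 in the Ankrd1 cluster (0.0415%), 1 in capillary nuclei (3.06%), 1 in the largest fibroblast cluster (2.53%) and 0 in the Cd163 cluster (2.94%).

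With the replicate block, SBP against sham gave 0 members in endothelial cells (1.14%) and I/R against sham gave 2 in fibroblasts (10.5%). Same-numbered samples did not deviate together (r from -0.319 to 0.294 over 36 pairs, 11 over 0.1), so the numbers were not taken as a pairing. With the mean of deposited log values, SBP against I/R in cardiomyocytes turned to -0.0051 for Sema6d, -0.029 for Slit3 and -0.000895 for Slit2, and Slit3 was -0.11 in the Ankrd1 cluster without I/R replicate 1. Leaving out 1 mouse moved that Sema6d value from -0.16 (without I/R replicate 3) to 0.39 (without I/R replicate 1), and fibroblast Sema6a in I/R against sham was 0.27 without doublet-like nuclei, a rule that removed 62.8% of all nuclei. The largest myeloid cluster had no sham sample with 20 nuclei and gave no value against sham. Members with few UMIs and the rarer types limit what could be detected.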
